A study of Mus musculus with 333 samples.

Results

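The genes described here are the 8 that carry antigen presentation by the mouse major histocompatibility complex (MHC) in the deposited table, taken by name from its 22074 genes. The class I group holds the heavy chains H2-K1 and H2-D1, their partner beta-2 microglobulin (B2m) and the peptide transporter subunit Tap1. The class II group holds the chains H2-Aa, H2-Ab1 and H2-Eb1 and the invariant chain Cd74. The table lists the last 6 in capitals as B2M, TAP1, H2-AA, H2-AB1, H2-EB1 and CD74. They were followed across 333 single cells of wildtype mouse brain, sequenced as 1 polyA library per cell. The cells came from embryonic day 18.5 (E18.5), postnatal day 12 (P12) and adult mice, with 5 mice per stage. By title they form 6 sets, namely visual cortex and mThal at E18.5, visual cortex, hippocampus and thalamus at P12, with adult visual cortex as the sixth. For the E18.5 cells titled mThal, GEO's source field says visual cortex. All groups share the wildtype genotype, and their strain, sex and adult age are unstated. FACS enrichment used an unstated gate, so a missing cell type says nothing about the tissue.

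MHC class I molecules sit on the surface of most nucleated cells and show peptides from the cell's own proteins to cytotoxic T cells. Peptides cut by the proteasome are pumped into the endoplasmic reticulum by the TAP transporter and loaded onto a heavy chain bound to B2m, which the heavy chain needs to reach the surface. MHC class II molecules are restricted mainly to professional antigen presenting cells (B cells, dendritic cells and macrophages), where Cd74 guides a pair of alpha and beta chains to the compartment in which peptides from outside are loaded. Both classes respond to interferons. In the brain, endothelial cells and microglia are known as the main carriers of class I, and resting microglia are known for little class II.

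Of the members, 6 matched the promoter table, and the 200 bases before the start of transcription are shown for 5 of them because the class I genes and the class II chains split in the values below. Sequences are from RefSeq on GRCm38.p6, read 5′ to 3′ on the strand of the gene. The start is that of RefSeq. For H2-D1 the window lies inside the gene span given below from GENCODE, which begins further upstream. Capitals mark 4 letter patterns searched on both strands, the Y box core ATTGG, the X2 box core TGACG, a kappaB site GGGATTCCC and the interferon regulatory factor core GAANNGAAA. Where a pattern lies on the other strand the capitals show its reverse complement, and in H2-Aa a pair of X2 matches overlaps on the opposite strands. The windows are chr17:34000348-34000547 (minus strand) for H2-K1, chr17:35262894-35263093 (plus strand) for H2-D1, chr2:122147487-122147686 (plus strand) for B2m, chr17:34287824-34288023 (minus strand) for H2-Aa and chr17:34305667-34305866 (plus strand) for H2-Eb1.
H2-K1: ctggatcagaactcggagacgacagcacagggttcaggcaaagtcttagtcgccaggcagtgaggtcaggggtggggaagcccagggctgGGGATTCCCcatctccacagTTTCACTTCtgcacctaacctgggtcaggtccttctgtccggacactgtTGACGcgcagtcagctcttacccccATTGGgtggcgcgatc
H2-D1: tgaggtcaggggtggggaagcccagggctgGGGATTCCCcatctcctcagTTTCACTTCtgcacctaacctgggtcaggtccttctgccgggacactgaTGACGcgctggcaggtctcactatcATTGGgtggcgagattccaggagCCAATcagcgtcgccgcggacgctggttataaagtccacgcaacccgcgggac
B2m: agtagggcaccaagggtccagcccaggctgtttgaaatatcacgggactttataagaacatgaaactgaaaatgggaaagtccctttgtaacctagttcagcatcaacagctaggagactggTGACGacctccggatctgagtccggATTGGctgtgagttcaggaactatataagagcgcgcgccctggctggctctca
H2-Aa: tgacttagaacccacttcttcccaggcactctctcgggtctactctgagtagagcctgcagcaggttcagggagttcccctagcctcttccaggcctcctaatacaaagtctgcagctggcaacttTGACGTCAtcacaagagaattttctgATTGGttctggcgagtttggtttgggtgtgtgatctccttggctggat
H2-Eb1: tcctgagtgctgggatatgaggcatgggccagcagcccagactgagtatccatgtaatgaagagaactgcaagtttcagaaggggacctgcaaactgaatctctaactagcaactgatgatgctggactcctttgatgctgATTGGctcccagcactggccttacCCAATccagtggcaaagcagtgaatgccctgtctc

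The windows of H2-K1 and H2-D1 held all 4 patterns in the same order. In H2-K1, H2-D1 and B2m the X2 core stood 25 bases before the Y core on the same strand, and in H2-Aa 26 bases. A distance of 24 to 26 bases was found in 0.185% of all 27025 promoter windows of this length, a range chosen after these matches were seen. The share of windows with each pattern was 30% for the Y core, 15.8% for the X2 core, 0.222% for the kappaB site and 5% for the interferon regulatory factor core. H2-Eb1 held 2 Y cores and no X2 core in this window, and Tap1 held an X2 core only. Only these exact letters were searched, so a window without a marked pattern can still hold another form of the same site. These matches are descriptions of letters, not of bound factors.

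On mm10 with GENCODE M21 the class I genes H2-K1 (chromosome 17, 33996017 to 34000347, minus strand), H2-D1 (chromosome 17, 35262730 to 35267499, plus strand) and Tap1 (chromosome 17, 34187553 to 34197225, plus strand) lie in the MHC region. The class II chains H2-Aa (chromosome 17, 34282744 to 34287823, minus strand), H2-Ab1 (chromosome 17, 34257689 to 34269419, plus strand) and H2-Eb1 (chromosome 17, 34305867 to 34316674, plus strand) lie there too, and B2m is elsewhere (chromosome 2, 122147686 to 122153083, plus strand). The MHC genes have close relatives: of all 50-base stretches of their annotated transcripts, 8.79% for H2-K1 and 14.3% for H2-D1 also occur in another gene, and for 100-base stretches 0 and 4.64%. The values of H2-K1 and H2-D1 are uncertain to the extent that such reads were split or dropped in counting. Tap1 overlaps exons of Psmb9, and without a stated strand setting their shared reads cannot be told apart. B2m and the 3 class II chains shared no 50-base stretch with another gene.

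Levels are in CPM, a read count scaled to 1000000 reads of the cell or of the whole group, with an exact Poisson interval (95%) in parentheses that covers counting error only. Library totals lay between 374574 and 4849603 reads (median 1308901), so 1 read is worth about 1 CPM. The labels do not say which animal a cell came from, so each cell type in each set is 1 sample, and no comparison has replicates or a test. A gene was taken as measured from 10 CPM in the higher arm, and as higher or lower from a ratio of 2. Log2 ratios had 1 CPM added to both arms, while their counting intervals are those of the plain ratio and can lie outside the printed ratio where an arm is low. PCR reads without molecular identifiers are not independent molecules, so the molecules behind a value are fewer than its reads. Named cell types hold 271 cells once cells 1 and 6 of adult visual cortex, labelled Microglia, are shown apart. Another 53 cells are unannotated and 7 are labelled purple, a label without a stated meaning.

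The labels of the cells that matter here were checked against marker genes. All 12 microglia markers were at 10 CPM or more in the summed reads of the microglia of each P12 and adult set, with summed marker levels per cell from 10389 to 76332 CPM. In 6 cells labelled Microglia the macrophage markers reached or passed the microglia markers, the 2 of E18.5 mThal and cells 23, 30, 54 and 55 of P12 visual cortex. All 12 endothelial markers were present in each of the 3 endothelial groups. Adult endothelial cell 52 went against its label, with 2.26 CPM of endothelial and 67469.6 CPM of mural (pericyte and smooth muscle) markers, and adult endothelial cell 38 had 27.8 CPM of endothelial markers, against a median of 18958 CPM over endothelial cells.

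Summed over all sets, H2-K1 (2152 CPM) and B2m (1601 CPM) were higher in microglia than in any other named type, while H2-D1 was at 1128 CPM in microglia and 1165 CPM in endothelial cells. The 18 microglia of P12 visual cortex had H2-K1 at 1946 CPM (1929 to 1964), with single cells from 0 over a median of 887 to 7904 CPM. In the same cells H2-D1 was at 931 CPM (919 to 944), with cells from 0 over a median of 818 to 3311 CPM. B2m was at 1750.1 CPM (1734 to 1767), with cells from 8.48 over a median of 1360.5 to 6644 CPM. At 10 CPM or more, 17 of these 18 cells carried H2-K1, 15 carried H2-D1 and 17 carried B2m, and cell 10 was below 10 CPM for all 3. The 9 adult microglia had H2-K1 at 2679 CPM (2649 to 2709), with cells from 0 over a median of 3021 to 7004 CPM. Adult H2-D1 was at 1324 CPM (1303 to 1346), with cells from 1.02 over a median of 1383 to 2660.3 CPM. B2m in adult microglia was at 1493 CPM (1471 to 1516), with cells from 1.02 over a median of 1769 to 2999 CPM. The adult range is set at its lower end by cell 50, which had 0, 1.02 and 1.02 CPM of H2-K1, H2-D1 and B2m beside 44015 CPM of microglia markers. The other 8 adult microglia all carried the 3 genes at 48.05 CPM or more.

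In the 8 microglia of P12 hippocampus H2-K1 was at 1255 CPM (1235 to 1276), H2-D1 at 1339 CPM (1318 to 1360.3) and B2m at 1232 CPM (1212 to 1252). Cells 32 and 54 there had no read of either heavy chain, with B2m at 316 and 365 CPM, while the other 6 had both heavy chains at 371 CPM or more. The 3 microglia of P12 thalamus had H2-K1 at 6965, 3391 and 6091 CPM, and their summed level of 5469.9 CPM (5402 to 5539) was the highest of all groups. Their lowest cell was inside the range of the adult and P12 visual cortex microglia, so the groups overlapped. The 2 E18.5 cells labelled Microglia, in which macrophage markers lead, had B2m at 1021 and 1231 CPM, H2-D1 at 541 and 291 CPM, and H2-K1 at 473 and 0 CPM. Compared per length of merged exons in adult microglia, B2m stood at 1736 CPM per kb, above H2-K1 at 912 and H2-D1 at 514 CPM per kb. By the length of 1 transcript H2-K1 was at 1655 and H2-D1 at 630 CPM per kb. The length of B2m is 860 bases either way, so H2-K1 then came close to B2m.

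**Figure D1:**
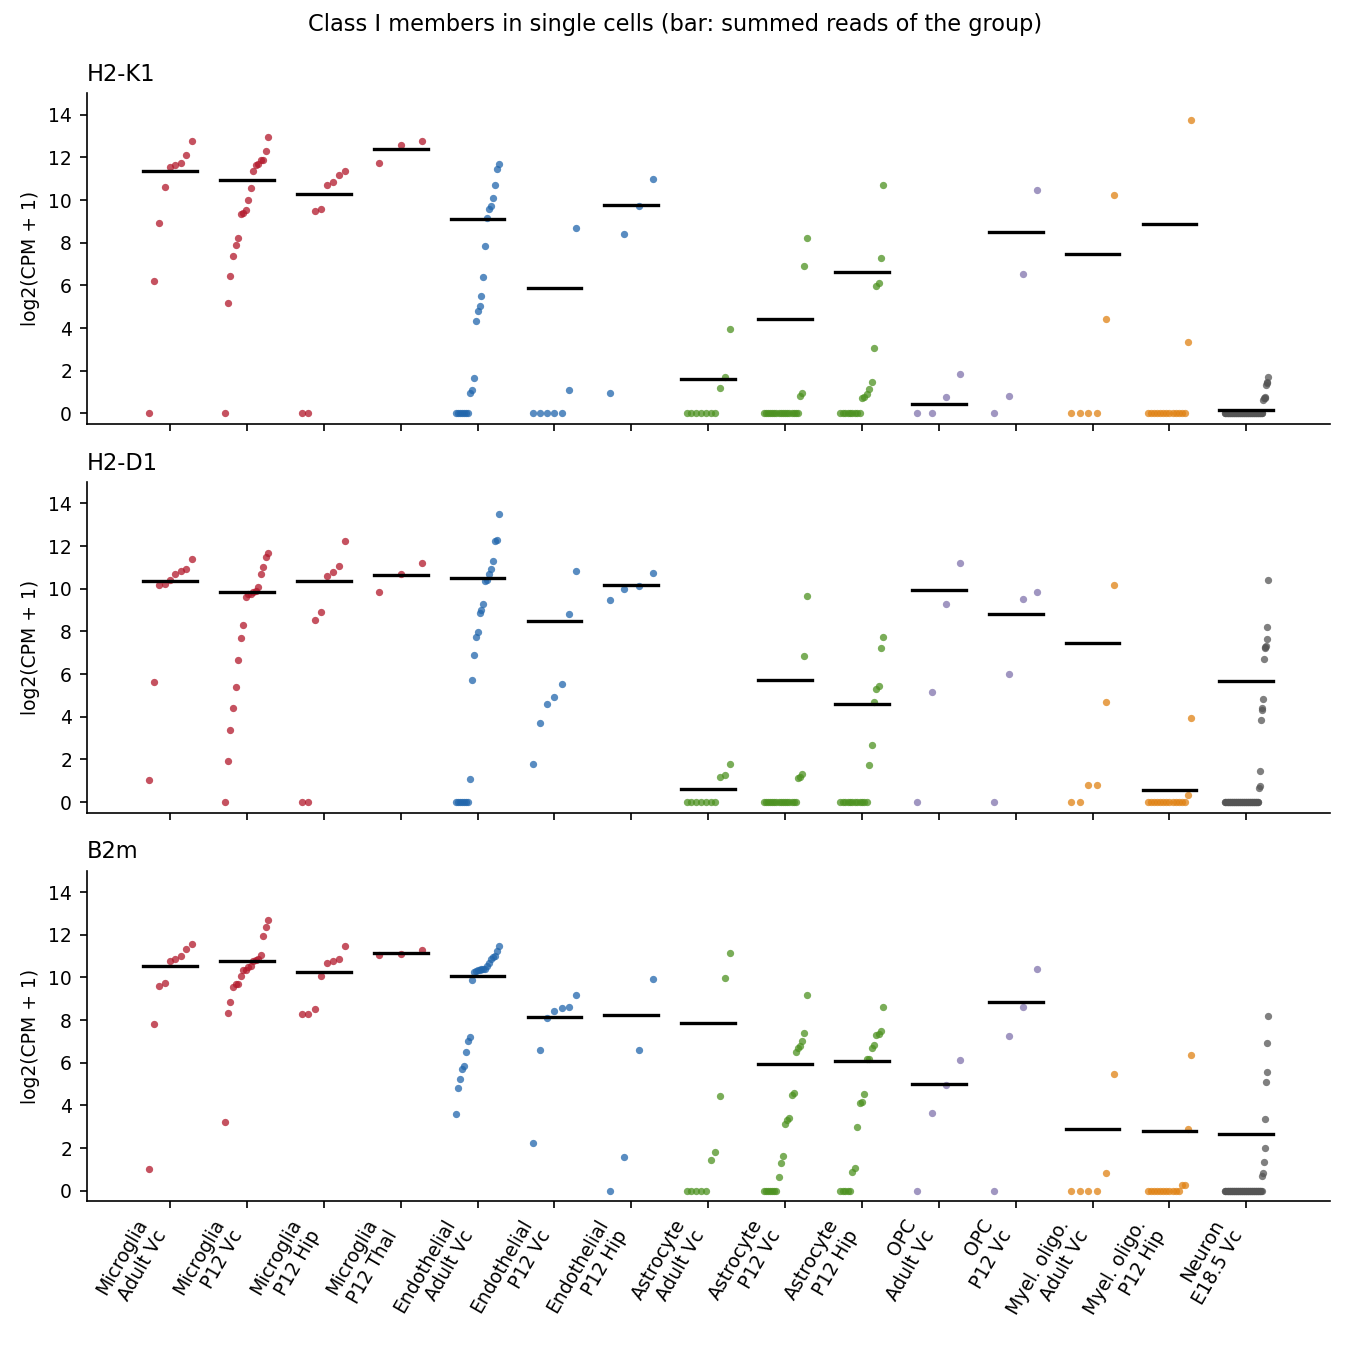
H2-K1, H2-D1 and B2m in single cells (points, log2 of CPM + 1) by cell type label and set, with the level of the summed reads as a bar; Vc is visual cortex, Hip hippocampus, Thal thalamus, OPC oligodendrocyte precursor. Microglia sit high for all 3 genes, endothelial cells spread from 0 to over 10 on this scale for the heavy chains, and most astrocytes, oligodendrocytes and neurons sit at or near 0.

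Endothelial cells were the other main carrier. In the 23 adult endothelial cells H2-D1 was at 1464 CPM (1449 to 1479), with cells from 0 over a median of 249 to 11803 CPM. H2-K1 was lower, at 547 CPM (538 to 556), with cells from 0 over a median of 27.2 to 3308 CPM. B2m was at 1074 CPM (1061 to 1087), with cells from 11.3 over a median of 1315 to 2868 CPM, and all 23 cells had it at 10 CPM or more. B2m was thus the steadier of the 3 transcripts, while H2-D1 rested in part on cell 60, which gave 31.1% of its reads. The cell with the highest H2-K1, at 3308 CPM, was cell 52, in which mural and not endothelial markers lead. In the 7 endothelial cells of P12 visual cortex H2-D1 was at 362 CPM (349.5 to 374), with cells from 2.46 over a median of 29.9 to 1855 CPM. B2m in those 7 cells was at 283 CPM (272 to 294), with cells from 3.69 over a median of 342 to 585 CPM. H2-K1 was carried there by cell 26 alone (409 CPM), the other 6 being at 1.15 CPM or less. The 4 endothelial cells of P12 hippocampus had H2-K1 at 0.969 (cell 51), 336 (cell 50), 2026 (cell 68) and 835 CPM (cell 19). In cells 51, 50, 68 and 19 H2-D1 was at 713, 1012, 1123 and 1717 CPM and all 4 cells carried this chain. B2m was at 0, 983, 1.99 and 94.8 CPM in the same order, so that cells 51 and 68 had heavy chains with B2m at or near 0.

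In endothelial cells the 2 heavy chains were often read in different cells, while in microglia they were mostly read together. Of the 23 adult endothelial cells, 8 had both heavy chains at 10 CPM or more, 7 had H2-D1 without H2-K1, 5 had H2-K1 without H2-D1 and 3 had neither. The 5 with H2-K1 alone include cells 38 and 52, the cells low in endothelial markers. Cell 60 was the clearest case, with H2-D1 at 11803 CPM and no H2-K1 read, and cell 54 the reverse, with H2-K1 at 1694 CPM and no H2-D1 read. The Spearman rank correlation of H2-K1 and H2-D1 over these 23 cells was 0.010, and over the 18 microglia of P12 visual cortex -0.150. Cells of a group share the capture and an unknown number of animals, and the values are descriptions. Over all 40 microglia 33 had both chains and 4 had neither. B2m at 10 CPM or more accompanied a heavy chain in each microglial cell that had one, and in 28 of the 30 endothelial cells that had one.

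**Figure D2:**
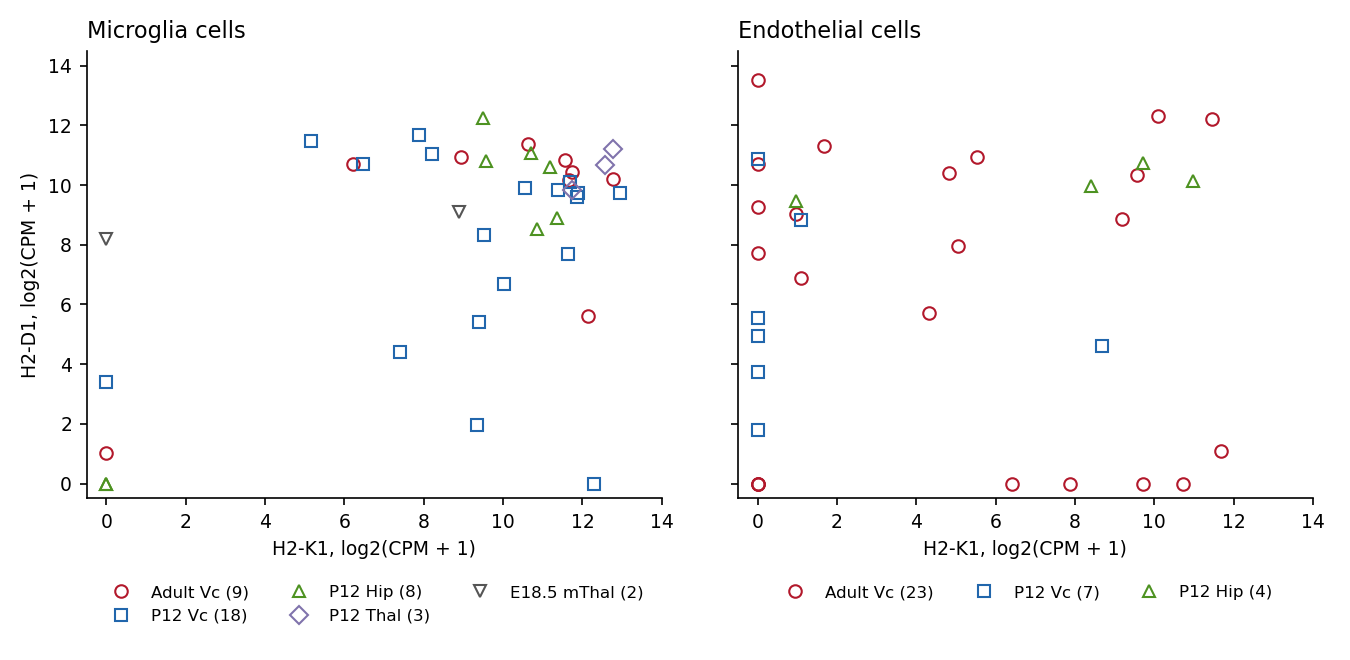
H2-D1 against H2-K1 in each cell labelled Microglia (left) or Endothelial (right), both as log2 of CPM + 1, with the number of cells per set in parentheses and cells 1 and 6 left out. Most microglia lie at the upper right, with both chains high, while endothelial cells also line both axes, with 1 chain high and the other at or near 0. Adult cells 38 and 52, low in endothelial markers, are among those with H2-K1 alone.

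To place these levels against the rest of the brain cells, each type was set against all other named cells. In the 40 microglia, 4 of 4 class I members (Tap1 through few cells) were at least 2-fold higher and none lower than in the other 231 named cells, and so was Cd74, beside 20.6% of all 10399 measured genes higher, 47.5% lower and a median log2 ratio of -0.84. The log2 ratio was 3.77 (counting interval 3.77 to 3.80, 3.68 to 4.76 with any 1 cell left out) for H2-K1, the highest of these without myelinating oligodendrocyte cell 12 of P12 hippocampus. For H2-D1 it was 2.53 (counting interval 2.52 to 2.55, 2.42 to 2.80 with any 1 cell left out). B2m had a log2 ratio of 3.52 (counting interval 3.51 to 3.55, 3.43 to 3.62 with any 1 cell left out). Within single sets the H2-K1 ratio ran from 1.80 (P12 hippocampus, 3.98 without that cell 12) to 11.07 (P12 thalamus). The H2-D1 ratio within adult visual cortex, where endothelial cells are 23 of the 43 other cells, was 0.47 and under 2-fold.

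In the 34 endothelial cells, H2-D1 and B2m were at least 2-fold higher than in the other 237 named cells and Cd74 was lower (2 against 4550 reads), beside 22.1% of 10458 measured genes higher, 45.5% lower and a median log2 ratio of -0.69. The log2 ratio was 2.31 (counting interval 2.30 to 2.34, 1.94 to 2.42 with any 1 cell left out) for H2-D1. For B2m it was 1.39 (counting interval 1.37 to 1.41, 1.27 to 1.49 with any 1 cell left out). H2-K1 stood within 2-fold, at 477 against 439.7 CPM. The other arm holds the microglia, and without them the log2 ratios were 2.07 for H2-K1, 4.19 for H2-D1 and 3.93 for B2m. Tap1, with no endothelial read, was at 7.17 CPM in the other cells and not measured by the minimum. Within P12 visual cortex, where microglia are 18 of the 47 other cells, B2m was lower in endothelial cells (log2 ratio -1.49) and H2-D1 was at -0.32. The B2m ratio was 0.89 within adult visual cortex and 0.79 within P12 hippocampus, where cell 50 gives 92.3% of the endothelial B2m reads, so B2m reached 2-fold higher in none of the 3 sets.

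Outside microglia and endothelial cells high levels of the class I heavy chains were a matter of few cells. Among the other 197 named cells, 25 had H2-K1 or H2-D1 at 100 CPM or more, of which 9 were astrocytes, 7 oligodendrocyte precursors (OPC), 7 neurons and 2 myelinating oligodendrocytes. Microglia markers stood beside the signal in 3 of them, at 25% or more of the microglial median of 40713 CPM. These were cell 12 of P12 hippocampus, a myelinating oligodendrocyte by label with H2-K1 at 13983 and microglia markers at 32808 CPM, OPC cell 48 of P12 visual cortex (H2-K1 1430.2, microglia markers 23029 CPM) and astrocyte cell 24 of P12 visual cortex (H2-D1 802, microglia markers 11994 CPM). In 19 of the 25 cells the microglia markers summed to less than 25 CPM. An example is astrocyte cell 24 of P12 hippocampus, with H2-K1 at 1673 CPM, no H2-D1 read and no read of a microglia or endothelial marker. Another is astrocyte cell 18 of P12 thalamus, with H2-D1 at 1276 CPM and no H2-K1 read.

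OPC carried H2-D1 more often than H2-K1. The 4 adult OPC had H2-D1 at 2362 (cell 62), 625 (cell 5), 35.1 (cell 43) and 0 CPM (cell 51), with H2-K1 at 2.58 CPM or less in all 4. Over all 16 OPC, H2-D1 reached 10 CPM in 9, H2-K1 in 2 and B2m in 11. The 65 neurons of E18.5 visual cortex had H2-D1 at 50.4 CPM (48.9 to 51.97), with 11 cells at 10 CPM or more and cell 13 giving 65.4% of the reads. H2-K1 in these neurons was at 0.105 CPM (0.0482 to 0.200), and no cell passed 2.28 CPM. B2m was at 5.35 CPM (4.87 to 5.86), and the 4 neurons with B2m at 10 CPM or more were not among the 11 with H2-D1. Astrocytes carried B2m more widely than heavy chains: over all 85, B2m reached 10 CPM in 35, H2-K1 in 9 and H2-D1 in 8. In the 17 astrocytes of E18.5 mThal B2m was at 139 CPM (135 to 144) with 7 cells at 10 CPM or more, while H2-K1 and H2-D1 reached 10 CPM in none. Of these B2m reads 39.7% came from cell 8, which had 2422 CPM of endothelial, 784 of macrophage and 314 CPM of astrocyte markers. Cell 35, another of the carriers, had mural markers at 10914 and astrocyte markers at 979 CPM. Without both cells B2m was at 97.1 CPM, with 5 of 15 cells at 10 CPM or more. None of the 5 newly formed oligodendrocytes had a class I member at 10 CPM or more.

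For shares of cells with a read every cell was thinned to 370000 reads, with the share before thinning and an exact Clopper-Pearson interval (95%) for the thinned share. B2m was read in 39 of 40 microglia (97.5%, 86.8 to 99.9%, unthinned 40). In endothelial cells it was read in 33 of 34 (97.1%, 84.7 to 99.9%, unthinned 33). Of the 65 neurons of E18.5 visual cortex, 7 had a B2m read (10.8%, 4.44 to 20.9%, unthinned 9). H2-K1 was read in 35 of 40 microglia, 19 of 34 endothelial cells and 3 of these neurons. The intervals cover the counting of cells only and treat cells as independent, although cells share sets and animals.

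Tap1, the subunit of the peptide transporter, was found at 10 CPM or more in only 5 of the 271 named cells. They were astrocyte cell 46 of adult visual cortex (2278 CPM), microglia cell 21 of P12 hippocampus (396 CPM), microglia cell 55 of P12 visual cortex (69.4 CPM), astrocyte cell 40 of P12 hippocampus (63.1 CPM) and microglia cell 35 of adult visual cortex (23.4 CPM). None of the 34 endothelial cells had a Tap1 read, although 31 of them carried B2m. The group ratios of Tap1 therefore rest on few cells. In microglia against the other cells its log2 ratio of 1.22 became -0.94 without P12 hippocampus cell 21 and 3.43 without adult astrocyte cell 46.

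Class II chains were almost absent from all named cells. H2-Aa reached 10 CPM in none of the 271 cells, and H2-Eb1 in none. H2-Ab1 did so in 4 cells, microglia cell 20 of P12 hippocampus (36.6 CPM), astrocyte cell 12 of P12 visual cortex (22.1 CPM), astrocyte cell 18 of P12 thalamus (20.2 CPM) and OPC cell 57 of P12 visual cortex (20.1 CPM). None of these 4 cells had a read of H2-Aa, H2-Eb1 or Cd74. No E18.5 cell had a class II read. Adult endothelial cell 34 had 1 read each of H2-Aa, H2-Ab1, H2-Eb1 and Cd74, and over the 60 adult cells other than cells 1 and 6 the chains had 16 reads in all, with at most 6 for a chain in a cell. In the 9 adult microglia the 3 chains had no read, which allows each up to 0.263 CPM at 3 reads over the group.

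Cd74, in contrast to the chains, was a microglial transcript. It was at 10 CPM or more in 13 of the 40 microglia and in none of the other 231 named cells, in which it had 2 reads (82.99 against 0.00613 CPM). The counting interval of the plain log2 ratio ran from 11.87 to 16.77. In adult microglia Cd74 was at 119 CPM (113 to 126), carried by cells 36 (455 CPM), 18 (235), 11 (39.6) and 8 (30.6). In P12 visual cortex it was at 113 CPM (109 to 117), with 7 of 18 cells at 10 CPM or more and cell 28 highest (951 CPM). Cell 17 of P12 hippocampus (116 CPM) and cell 1 of P12 thalamus (200.2 CPM) were the other carriers. So Cd74 was present in a minority of microglia in each of these sets, and none of the 13 carriers had a read of a class II chain. Among the 6 cells rich in macrophage markers, cell 30 of P12 visual cortex had Cd74 (70.1 CPM) and the other 5 had none. The class II chains had no read in any of these 6.

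Cells 1 and 6 of adult visual cortex stood apart from every other cell in the series. In cell 1 H2-Aa was at 15476 CPM, H2-Ab1 at 10644, H2-Eb1 at 7451 and Cd74 at 17820.1 CPM. In cell 6 the same genes were at 15907, 11251, 7479 and 18492 CPM. Together the 4 class II members took 5.14% of the reads of cell 1 and 5.31% of those of cell 6. By their mean Cd74 was the gene with the most CPM in these cells, H2-Aa ranked 2, H2-Ab1 4 and H2-Eb1 8. Per length of merged exons Cd74 was at 10816 CPM per kb, and H2-Ab1, H2-Aa and H2-Eb1 at 4265, 4132 and 3840.2. This order depends on the length used. H2-Aa has 3798 bases of merged exons and a longest coding transcript of 1128 bases, and Cd74 has 1679 and 1410 bases. By transcript length H2-Aa was above Cd74, and the chains lay further apart. Class I was uneven in them: H2-D1 was at 7163 and 7162 CPM, above the highest other adult microglia (2660.3 CPM), while H2-K1 was at 0 and 1.70 CPM. B2m was at 856 and 838 CPM, inside the range of the other adult microglia, and Tap1 had no read.

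The label Microglia does not match the markers of these cells. P2ry12, Cx3cr1, Csf1r and C1qb had no read in either cell, and the 12 microglia markers summed to 0.876 and 1.70 CPM, against 26185 to 52262 CPM in the other 9 adult microglia. No macrophage, monocyte, dendritic or T cell marker had a read in them. Of the 12 B cell markers 6 were high: Cd79a, a signalling chain of the B cell receptor (1427 and 1585 CPM), its partner Cd79b (565 and 693 CPM), Ms4a1, which encodes CD20 (710.2 and 769 CPM), the inhibitory receptor Cd22 (3999.6 and 3646 CPM), Ly6d (3752 and 4398 CPM) and the tetraspanin Cd37 (5467 and 5652 CPM). Cd37 was also found in 8 of the other 9 adult microglia. Pax5, Ebf1, Blk, Fcrla and Bank1 had no read, so the B cell marker list was present in part. The class II loading factors were high too, H2-DMa at 1854 and 2058 CPM, H2-DMb1 at 1586 and 1620 CPM, H2-DMb2 at 2619 and 2465 CPM and H2-Ob, part of the DO molecule that B cells are known for, at 2916 and 2924 CPM. H2-DMa and H2-DMb1 were also at 10 CPM or more in 3 each of the other 9 adult microglia, up to 2407 and 1423 CPM. In those 9 cells H2-DMb2 had no read and H2-Ob was at 6.25 CPM or less. 

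The 2 libraries were close to each other. Their Pearson correlation of log2(CPM + 1) across genes was 0.994, against 0.638 for the next closest pair of the 333 cells. Since genes are not independent of each other, this describes closeness only. A chi-square per degree of freedom over the 1155 genes with 20 or more reads was 4.08, above the value of pure read sampling and far below the lowest of the 36 pairs of other adult microglia (456). A single source read in 2 libraries and 2 very similar cells cannot be told apart here, and the 2 libraries are not counted as replicates. Including them would put class II among the microglial transcripts, with 8 of 8 members at least 2-fold higher in microglia than in other cells.

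**Figure D3:**
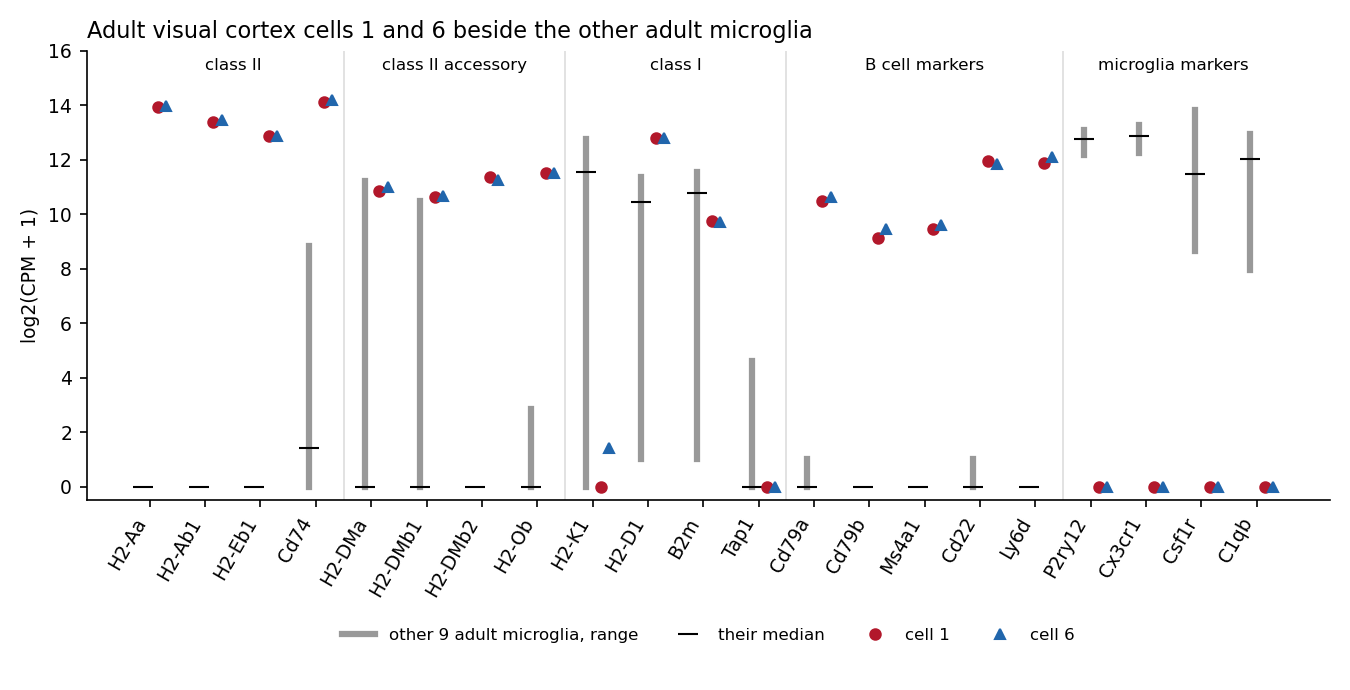
Levels (log2 of CPM + 1) in adult visual cortex cell 1 (circles) and cell 6 (triangles) beside the range (grey line) and median (tick) of the other 9 adult microglia. In cells 1 and 6 the class II genes and the B cell markers plotted lie high and the microglia markers at 0, and in the other adult microglia the microglia markers lie high; H2-D1 is high and H2-K1 at or near 0 in both cells.

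The comparison of ages asks how class I changed from P12 to adult visual cortex in the same cell type. In endothelial cells the 3 measured members, all of class I, were at least 2-fold higher in adults, beside 43.4% of 7167 measured genes higher, 32.5% lower and a median log2 ratio of 0.39. The log2 ratio was 3.22 (counting interval 3.11 to 3.37, 2.76 to 8.77 with any 1 cell left out) for H2-K1. For H2-D1 it was 2.01 (counting interval 1.96 to 2.07, 1.53 to 3.63 with any 1 cell left out). B2m had a log2 ratio of 1.92 (counting interval 1.87 to 1.98, 1.64 to 2.20 with any 1 cell left out). Both groups overlapped for every member. The H2-K1 ratio was 8.77 without P12 cell 26, the only P12 carrier, and 2.92 without adult cell 52, in which mural markers lead. The H2-D1 ratio was 3.63 without P12 cell 9 and 1.53 without adult cell 60. In the median cell H2-K1 was at 27.2 against 0 CPM, H2-D1 at 249 against 29.9 CPM and B2m at 1315 against 342 CPM. The 4 endothelial cells of P12 hippocampus had H2-K1 and H2-D1 at 867 and 1155 CPM, nearer to the adult than to the P12 cortical values, and B2m at 303 CPM, nearer to P12 visual cortex.

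In the summed reads of microglia none of the 4 measured members differed by 2-fold between adult and P12 visual cortex, beside 27.6% of 6775 measured genes higher, 48.6% lower and a median log2 ratio of -0.90. The log2 ratios were 0.46 for H2-K1, 0.51 for H2-D1, -0.23 for B2m and 0.08 for Cd74. Leaving out any 1 cell moved H2-K1 between 0.23 and 0.67, and Cd74 between -1.17 (without adult cell 36) and 1.12 (without P12 cell 28). By the medians given above, H2-K1 in the median cell was more than 2-fold higher in adults, while H2-D1 and B2m were within 2-fold. The cells of both ages overlapped for each of these genes. Whether the adult change of class I differs between endothelial cells and microglia was not tested. Each age is a set of its own, so age and any difference between the preparations cannot be told apart.

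Astrocytes had low values at both ages, and each of their ratios rested on few cells. The log2 ratios were -2.83 for H2-K1, -5.15 for H2-D1, 1.93 for B2m and 8.09 for Tap1. B2m and Tap1 were at least 2-fold higher and H2-K1 and H2-D1 lower in the 10 adult than in the 21 P12 astrocytes of visual cortex, beside 24% of 8379 measured genes higher, 58.7% lower and a median log2 ratio of -2.36. Adult B2m (232 against 59.97 CPM) came to 66.5% from cell 30, which also carried mural markers (10477 CPM), and 3 of 10 adult against 8 of 21 P12 cells had it at 10 CPM or more. P12 H2-K1 and H2-D1 came to 80.5 and 85.2% from cell 24, the cell with microglia markers. Without that cell the log2 ratios were -0.79 for H2-K1, -2.62 for H2-D1 and 2.96 for B2m, and without adult cell 30 B2m was at 0.47. The H2-K1 ratio was -3.96 without adult cell 21. All reads of Tap1 came from adult cell 46, at least 2115-fold above the floor of 3 reads over the P12 cells. H2-D1 had 3 reads in adult astrocytes, and its plain log2 ratio had a counting interval of -8.97 to -5.14. Without cells that carry markers of another class the H2-K1 ratio was 1.54, the other direction.

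Between regions at P12, hippocampal and cortical microglia differed by less than 2-fold in H2-K1 (log2 ratio -0.63), H2-D1 (0.52) and B2m (-0.51). Tap1 was higher (log2 ratio 3.48, -1.72 without hippocampal cell 21 and 5.79 without cortical cell 55) and Cd74 lower (log2 ratio -3.06, -2.01 without cortical cell 28 and -5.93 without hippocampal cell 17) in hippocampus, beside 29.3% of 6896 measured genes higher, 41.7% lower and a median log2 ratio of -0.35. At 10 CPM or more, 1 of 8 hippocampal and 7 of 18 cortical microglia carried Cd74.

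In adult visual cortex endothelial cells were set against microglia. H2-K1 was lower in endothelial cells, with a log2 ratio of -2.29 (counting interval -2.32 to -2.26, -2.75 to -2.06 with any 1 cell left out), and so was Cd74 at 2 reads against 1359 (counting interval -13.57 to -8.67, log2 ratio -6.80, -5.55 without microglia cell 36), beside 52.3% of 7328 measured genes higher, 31.9% lower and a median log2 ratio of 1.29. H2-D1 (0.14) and B2m (-0.48) were within 2-fold. In visual cortex summed H2-K1 was above H2-D1 per kb of merged exons in adult microglia (912 against 514 CPM per kb) and below it in adult endothelial cells (186 against 568). The same orders were found at P12, with 662 against 361 CPM per kb in microglia and 19.7 against 140.3 in endothelial cells. These 4 orders also held with the length of 1 transcript in place of merged exons and with any 1 cell left out. In P12 hippocampus neither type had a settled order. Its microglia had 427 against 519 CPM per kb, but 448 against 363 without cell 17, which holds 37.2% of the H2-D1 reads, and 775 against 637 by transcript length. Its endothelial cells had 295 against 448 CPM per kb, but 536 against 549.6 by transcript length and then 542 against 465 without cell 19.

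Myelinating oligodendrocytes of adult visual cortex and P12 hippocampus differ in age and region together. Each of their ratios rested on few cells. H2-D1 was higher in the 6 adult cells with a log2 ratio of 6.86 (counting interval 7.90 to 9.06, 2.33 to 7.41 with any 1 cell left out), where cell 41 gave 96.8% of its reads. H2-K1 was lower (-1.40), and was 6.69 without P12 hippocampus cell 12, the cell with microglia markers, and -6.69 without adult cell 41. The H2-D1 ratio was 2.33 without adult cell 41. Over all 4989 measured genes 56.9% were higher, 29.2% lower and the median log2 ratio was 2.07. Of these 21 cells 17 had neither heavy chain at 10 CPM or more.

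The rest of the pathway was read from lists that do not overlap the members. In adult against P12 endothelial cells of visual cortex, peptide loading genes had 4 of 6 measured genes at least 2-fold higher and 1 lower (median log2 ratio 2.21), beside 43.4% of all measured genes higher, 32.5% lower and a median of 0.39. Among them Tapbp, which bridges the transporter to the heavy chain, was at 329 against 67.7 CPM and Pdia3, a disulphide isomerase of the loading complex, at 727 against 162 CPM, while the chaperone Calr was lower (224 against 459.7 CPM). The immunoproteasome list had 4 of 5 measured genes at least 2-fold higher and 0 lower (median log2 ratio 1.64). Genes of the interferon response had 15 of 19 measured genes at least 2-fold higher and 1 lower (median log2 ratio 2.66). Of these 19 genes 8 had no read in 1 arm and passed the minimum through the other arm alone. The arms hold 23 adult and 7 P12 cells, and the part of these unequal numbers in the counts was not tested. In this list Usp18 (251 CPM, 6 of 23 adult cells at 10 CPM or more) had no P12 read. By the floor of 3 reads over the P12 cells Usp18 was at least 763-fold higher. Irf7, a transcription factor of the interferon response, was at 119.8 CPM in adults, in 5 cells, and had no P12 read. The MHC regulators had 4 of 8 measured genes at least 2-fold higher and 1 lower (median log2 ratio 1.65). Usp18 and Irf7 were thus each carried by a minority of the adult cells. Interferon receptors and their kinases had 5 of 7 measured genes at least 2-fold higher and 1 lower (median log2 ratio 2.38), nonclassical class I genes 3 of 6 measured genes at least 2-fold higher and 2 lower (median log2 ratio 0.90) and class II accessory genes 1 of 3 measured genes at least 2-fold higher and 2 lower (median log2 ratio -1.14). The shares higher among the MHC regulators and the nonclassical genes lie near the share over all genes. Of the 6 measured peptide loading genes 2 had no read in 1 arm. So had 1 gene each of the immunoproteasome, MHC regulator, interferon receptor and nonclassical lists. These too passed the minimum through the other arm alone. The nonclassical genes of the H2-Q and H2-T families are near copies of each other, and their values are uncertain for that reason.

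Per cell, adult endothelial cells had 1 to 9 (median 5) and P12 cortical endothelial cells 2 to 6 (median 3) of the 20 interferon response genes at 10 CPM or more, so the groups overlapped. The summed level of these genes and that of class I had a Spearman rank correlation of 0.0089 over the 23 adult cells, which share their set and library preparation. Cell 60, with the highest class I sum (13893 CPM), had 3413 CPM of interferon response genes, and cell 58, with the highest interferon response sum (17927 CPM), had 1378 CPM of class I.

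In microglia the interferon response list had 1 of 11 measured genes at least 2-fold higher and 9 lower (median log2 ratio -4.79, -5.55 with a 0 set to 3 reads) in adults, beside 27.6% of all measured genes higher, 48.6% lower and a median of -0.90. Of these 11 list genes 6 had no read in 1 arm, with 9 adult and 18 P12 cells. Per cell the median was 2 of the 20 list genes at 10 CPM or more at both ages. The range was 1 to 3 in adults and 0 to 8 at P12. The median summed level was 1352 CPM in adults and 1161 CPM at P12. Most list genes were read in P12 cells 55, 23, 54 and 30 (8, 6, 5 and 4), the cells rich in macrophage markers. Their part in the list result was not tested. Irf9, a transcription factor of the interferon response, was at 0 against 200.2 CPM (3 of 18 P12 cells) and Ifitm3, an interferon-induced membrane protein, at 0 against 89.1 CPM (3 of 18). The MHC regulators had 2 of 8 measured genes at least 2-fold higher and 5 lower (median log2 ratio -3.57), with Irf1 at 0.176 against 80.3 CPM. Peptide loading genes had 1 of 6 measured genes at least 2-fold higher and 3 lower (median log2 ratio -1.82), the immunoproteasome 2 of 5 measured genes at least 2-fold higher and 1 lower (median log2 ratio 0.25), the interferon receptors and their kinases 1 of 7 measured genes at least 2-fold higher and 3 lower (median log2 ratio -0.81) and the nonclassical class I genes 2 of 8 measured genes at least 2-fold higher and 5 lower (median log2 ratio -2.05). Their class II accessory genes had 5 of 9 measured genes at least 2-fold higher and 2 lower (median log2 ratio 1.20). The shares lower among the peptide loading genes and the interferon receptors lie near the share over all genes, and those of the MHC regulators and nonclassical genes are about 1 gene above it. In the nonclassical and class II accessory lists 2 genes each had no read in 1 arm. So had 1 gene each of the peptide loading, immunoproteasome, MHC regulator and interferon receptor lists. H2-DMa, a chain of the peptide exchange factor DM, was at 245 against 30.9 CPM, in 3 of 9 and 4 of 18 cells. Over all microglia against other named cells, 11 of 11 measured accessory genes were higher (median log2 ratio 4.07, beside 20.6% of all measured genes higher and a median of -0.84). They include the protease Ctss, which trims the invariant chain (4921 against 16.3 CPM), and the costimulatory ligand Cd86 (1189 against 0.521 CPM, 33 of 40 cells). Within adult visual cortex 7 of 7 accessory genes were higher, and within P12 visual cortex 7 of 8 with 1 lower. Within P12 hippocampus 5 of 6 were higher and 1 lower, and within P12 thalamus 3 of 5 and 2. Over all measured genes 22.8 to 33.6% were higher and 48.5 to 65.6% lower within these sets. Ciita, the transactivator of class II genes, had 0 reads in the 40 microglia. Microglia thus had transcripts of loading and costimulation steps while the chains themselves were at or near 0. Over all sets the 5 immunoproteasome genes were all higher in microglia (median log2 ratio 2.44, beside -0.84 and 20.6% higher over all measured genes), among them Psmb8 at 52.8 against 3.29 CPM. Within single sets, beside the within-set shares given above, 3 of 5 were higher and 1 lower in adult and in P12 visual cortex. In P12 hippocampus 4 of 4 were higher, and in P12 thalamus 3 of 4 with 1 lower.

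**Figure D4:**
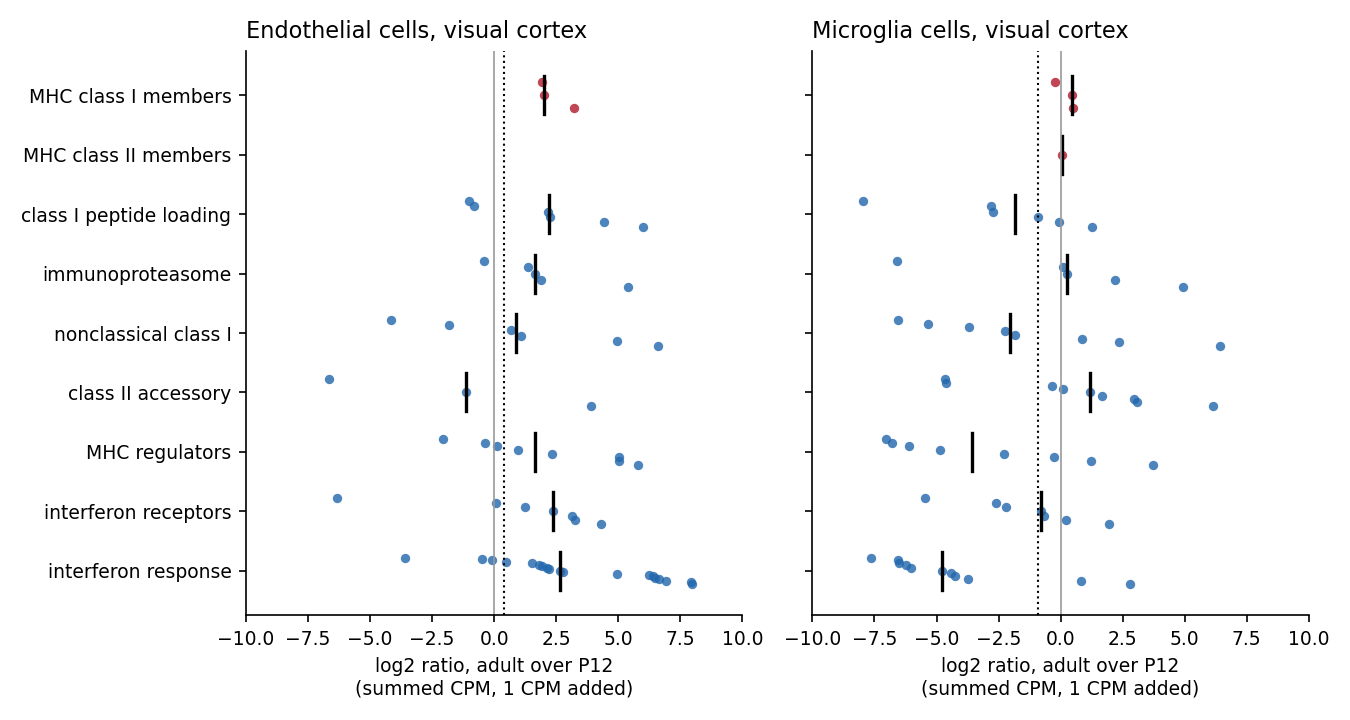
Log2 ratio of summed CPM, adult over P12 visual cortex, for every measured gene of each list (points) in endothelial cells (left) and microglia (right), with the list median as a bar and the median over all measured genes as a dotted line (0.39 and -0.90). Class I members lie at about 2 or above in endothelial cells and near 0 in microglia, and the interferon response list lies to the right in endothelial cells and mostly to the left in microglia.

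Genes with the pattern most like the members were ranked by Pearson correlation of log2(CPM + 1) over the 20 groups of 3 or more named cells, among 11069 genes with 50 CPM or more in a group. For summed class I the highest were Egr1 (0.849), Hspa5 (0.816), Runx1 (0.781), Stat6 (0.778), Itm2b (0.774). For summed class II, which outside cells 1 and 6 is almost wholly Cd74, they were Cd48 (0.978), Bin2 (0.974), Abca9 (0.965), Nfam1 (0.965), Trem2 (0.964). The groups share sets and their depth, and 4 of the 20 are microglia, so the ranking for class II follows which genes are read in microglia. With the 15 groups of 5 or more cells 1 of the 5 class I genes (Stat6) and 2 of the 5 class II genes (Cd48 and Nfam1) stayed among the highest 5.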

How the data were processed

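Single cells, enriched by FACS, were captured on a Fluidigm C1 and made into polyA libraries with the SMARTer and Nextera XT kits, per the labels' protocols. The deposited table holds read counts per gene as whole numbers, which the authors made with STAR and HTSeq 0.6.0 on mm10 per the submitters' processing notes, in what order and with what settings is not given in the sources used here. Its columns were matched to samples by the cell ID in the labels, and no column of another sample was left over (0). The counts were used as deposited, divided by each cell's or group's total. Gene positions and lengths came from GENCODE M21, with 21249 of 22074 symbols matched, and promoters from RefSeq. The members and gene lists were chosen with earlier results of these data known. Named besides the 8 members were up to 5 genes per list by size of log2 ratio at 50 CPM or more, marker genes beside a result, and the 5 genes most like each class. Irf8 and Trac have no row in the table. Some genes are not reported here. No doublet caller was run, so cells with markers of another class were given with those markers. Alternatives were other added values and minimums, TMM (edgeR 4.0.16, R 4.3.3) and median-of-ratios (DESeq2 1.42.0) factors on summed counts, means and medians over cells, and leaving out cells. No count model was fitted. Steps ran in Python 3.11.15 with pandas 2.3.3, numpy 2.4.6, scipy 1.17.1 and matplotlib 3.10.9 and were tested on simulated counts.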

Additional observations from a re-analysis of the deposited data

Results flagged for a closer look

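Among groups of 4 to 10 cells, 27 pairs of a member and a group with a highest cell of 50 CPM or more were looked at, and in 7 a single cell lay apart from the rest by Dixon's criterion. For normally distributed values chance marks about 1 in 20 groups; many of the values here are at or near 0, in groups picked for a high cell, so that rate is not the one for them. Tap1 in adult astrocytes came from cell 46 at 2278 CPM, the other 9 having none. H2-K1 in the endothelial cells of P12 visual cortex came from cell 26 at 409 CPM. B2m was low in 1 endothelial cell of the same set, cell 8 at 3.69 CPM, and in adult microglia cell 50 at 1.02 CPM, where the other 8 began at 223 CPM. Microglia of P12 hippocampus held Tap1 mainly in cell 21 (396 CPM) and Cd74 mainly in cell 17 (116 CPM). B2m in the 5 neurons of E18.5 mThal came from cell 27 at 344 CPM.

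Cells without a named type entered no comparison, and some carried class I transcripts. In adult visual cortex 1 of 2 unannotated cells, cell 57, had H2-D1 at 1062 CPM and no read of H2-K1 or B2m. The 25 unannotated cells of E18.5 mThal had B2m up to 2033 CPM (cell 26), with 10 cells at 10 CPM or more and no heavy chain at 10 CPM. In P12 hippocampus 6 of 16 unannotated cells had H2-D1 at 10 CPM or more, up to 134 CPM in cell 60, which also had B2m at 182 CPM. The single unannotated cell of P12 thalamus had H2-K1 at 561 CPM, H2-D1 at 399 CPM and Tap1 at 92.3 CPM, with no B2m read. Unannotated cell 16 of P12 visual cortex had B2m at 316 CPM. Of the cells labelled purple, adult cell 45 had B2m at 838 CPM. The purple cell of P12 visual cortex, cell 13, had H2-K1 at 636 CPM and B2m at 393 CPM beside 93119 CPM of mural markers. The part of those markers in the result was not tested.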

How the results depend on the processing

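For 21 member ratios of 2-fold or more, 285 of 306 recomputed values kept their sign, 277 of them at 2-fold or more, 11 took the other sign and 10 were 0. TMM and median-of-ratios scaling moved the ratios of a comparison by -1.31 to 0.49 and -1.48 to 0.68 (log2) and turned no member ratio of 2-fold or more. Of endothelial against other cells, members counted higher were 1, 0 and 1 within adult visual cortex, P12 visual cortex and P12 hippocampus, and members lower 2, 3 and 0. Members lower were also 2 with no minimum, 0 with a minimum of 50 CPM, 2 by the mean of cells, 0 by the median cell, 0 without microglia in the other arm, 4 with cells 1 and 6, and 0 to 1 with 1 cell left out. Within P12 visual cortex the H2-K1, H2-D1 and B2m ratios were -3.86, -0.32 and -1.49, and without microglia in the other arm Cd74 was at 0.0719. For microglia against other cells 3 members were higher by the median cell, 8 with cells 1 and 6 and 3 within adult visual cortex, where 1 was lower. The Tap1 ratio was -3.81 within adult visual cortex, -0.0704 within P12 thalamus and -0.94 to 3.43 with 1 cell left out. Adult against P12 microglia had 1 member (H2-K1) higher by the median cell, and 0 to 1 higher and 0 to 1 lower with 1 cell left out. In astrocytes the counts higher and lower were 0 and 0 by the median cell, with B2m at -2.22, and 1 to 2 and 0 to 2 with 1 cell left out. Their count lower was 1 with a minimum of 50 CPM and 0 without cells that carry markers of another class, with H2-K1 then at 1.54. For microglia of P12 hippocampus against visual cortex the count higher was 2 with no minimum, 0 by the median cell and 0 to 1 with 1 cell left out (Tap1 -1.72 to 5.79), and the count lower 0 by the median cell. Of adult endothelial cells against microglia 5 members were lower with cells 1 and 6. In myelinating oligodendrocytes the counts higher and lower were 0 and 0 by the median cell, 2 and 0 without cells that carry markers of another class (H2-K1 at 6.69), and 0 to 2 and 0 to 1 with 1 cell left out (H2-K1 -6.69 to 6.69). Of the 5 genes most like each class 1 for class I and 2 for class II were shared with groups of 5 or more cells. Beyond the construction of each alternative (fewer cells, genes or sets), the cause was not tested. Leaving out cells rich in macrophage or mural markers, cell 50, or a cell type of the other arm was chosen after seeing the data. The same holds for the transcript lengths used per kb and for leaving out each cell in the heavy chain values. Cells 8 and 35 of the E18.5 astrocytes were also left out after seeing the data. No paired analysis was possible because no label ties cells to an animal. At these depths 1 read was worth about 1 CPM or less in most cells, and levels of a few CPM are near that limit.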
